A study of Mus musculus with 6 samples.

Results

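The genes described are 36 genes of mitosis, listed by symbol as cyclins, mitotic kinases, kinesins, and proteins of the kinetochore and of cytokinesis. All 36 were found among the 22040 Ensembl genes of the count table, each matched to a single gene identifier, and all 36 passed the filter on low counts. RNA came from white adipose tissue of mice and was sequenced in 6 samples. The 3 controls (CTR) had received saline by the intraperitoneal route, and the 3 Rb1 samples ginsenoside Rb1 by the same route at 14 mg/kg per day. Ginsenoside Rb1 is a saponin of ginseng, and "Rb1" means this compound throughout, not the retinoblastoma gene of the same symbol. The sources used here do not give the fat depot, the strain, age, sex and diet of the mice, or the length of treatment. Nor do the labels say that the 3 samples of a group came from separate animals, so p-values measure only the spread between these samples.

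Mitosis is driven by cyclin-dependent kinase 1, which is switched on by A- and B-type cyclins and switched off when the anaphase-promoting complex marks those cyclins for destruction. The transcripts of the genes involved build up in G2 and are nearly absent from resting cells, so in a tissue they are read as a trace of the cells that are cycling. Mature adipocytes do not divide, while macrophages, progenitors, endothelial cells and lymphocytes of the fat can. In whole tissue, fewer cycling cells and less of these transcripts per cycling cell cannot be told apart.

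All 36 genes had a lower fitted level with Rb1 than in the controls, which held for 48.7% of all genes tested, and in 29 of them every Rb1 sample lay below every control. Over all 14093 genes tested, 9.74% were separated in that way, and 7.73% in the opposite way, which held for none of the 36. The 36 were chosen with earlier results of these data known. The shares set beside them are thus a description and not an independent test. The median log2 fold change over the 36 was -0.81, which is 57.1% of the control level, and the median over all genes tested was 0.01. Values ran from -1.40 (Bub1 and Hmmr) to -0.09 (Anln), with 8 genes at -1 or lower, a position held by 3.58% of all genes. No member passed edgeR's quasi-likelihood test with Benjamini-Hochberg adjustment over all genes, where the share called lower was 0.0% and the smallest adjusted p of a member was 0.119. The 1 gene past that threshold in either direction (0.0071% of those tested) was Xiap, an inhibitor of apoptosis that stood higher with Rb1 and is named after its value was seen. At an unadjusted p under 0.05 edgeR placed 27 of the 36 lower, against 7.54% of all genes, and 0 higher, against 4.01%. DESeq2 called 9 of the 36 lower, against 2.01% of the genes it tested, and without control replicate 2 it called 1, against 0.936%.

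Added together, the 36 genes gave 282, 277 and 221 CPM in control replicates 1, 2 and 3. CPM here is the usual depth-scaled read count, with library sizes adjusted by TMM. The same sum was 154, 137 and 162 CPM in Rb1 replicates 1, 2 and 3. The control mean of 260.3 ± 34.1 CPM was thus 1.72 times the Rb1 mean of 151 ± 12.4 CPM (SD, n = 3 each), and the groups did not overlap. Control replicate 3 was the lowest control for 31 of the 36 genes, and Rb1 replicate 2 was the lowest Rb1 sample for 22. The reads behind each gene were few, from 99 to 4456 over all 6 libraries, whose totals ran from 15440339 to 24501446.

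**Figure D1:**
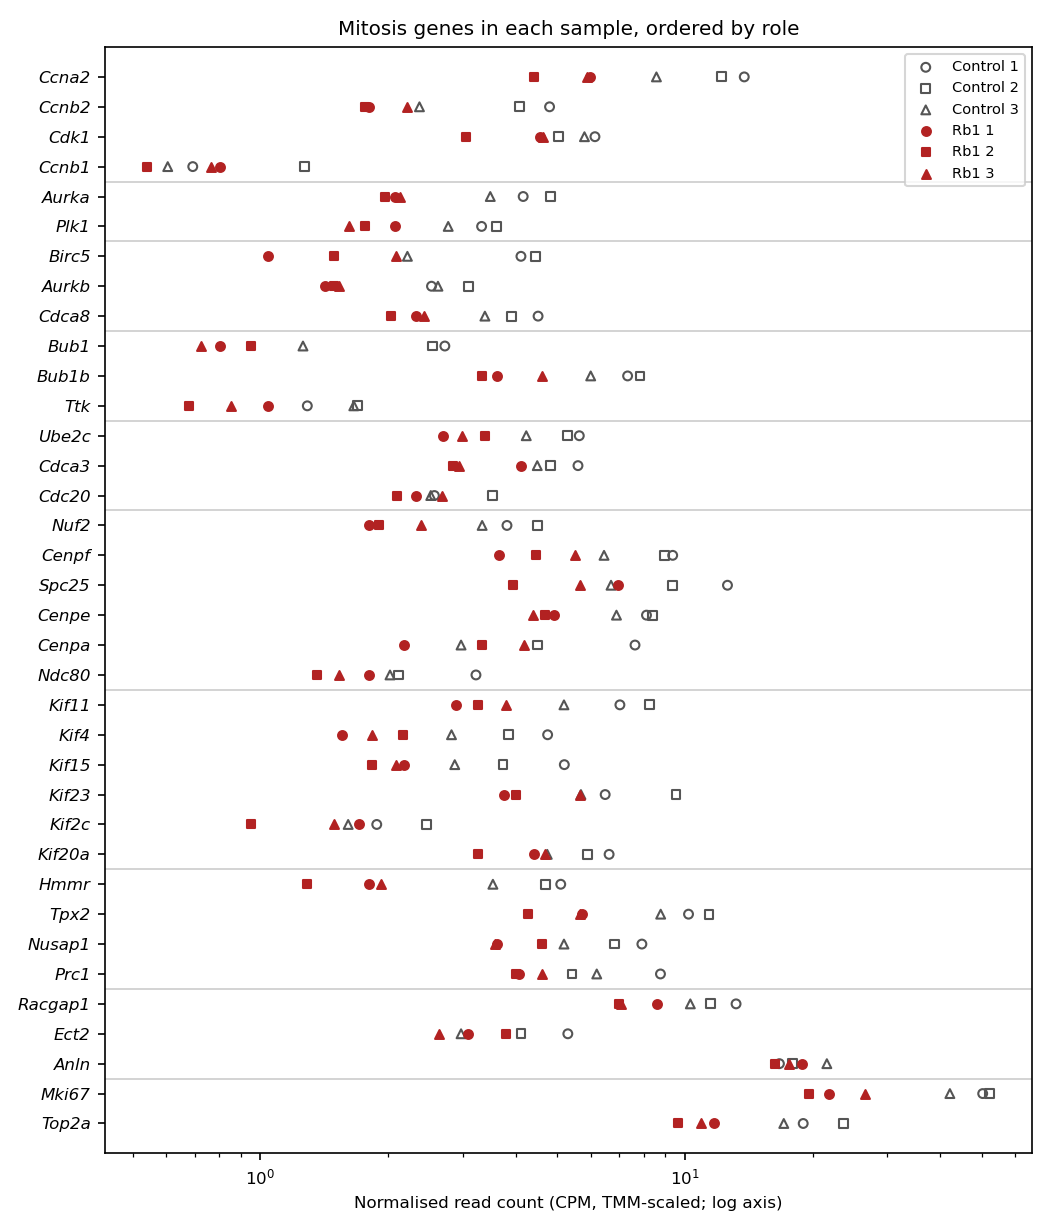
Each row is a mitosis gene, grouped by role with lines between the groups, and each symbol is a sample on a logarithmic axis of TMM-scaled CPM. Open grey symbols are controls and filled red symbols are Rb1, and for 29 of 36 genes all red symbols lie to the left of all grey ones.

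Control replicate 2 stands apart from the other libraries through skeletal muscle transcripts. The 14 muscle genes of a fixed list summed to 27347 CPM there, to 326 and 392 CPM in control replicates 1 and 3, and to 156, 38.1 and 88.3 CPM in Rb1 replicates 1, 2 and 3. The Rb1 samples were thus below the other controls too. Without that library, 9 of the 11 muscle genes tested had all Rb1 samples below the remaining controls, against 13.7% of all genes. The part of muscle RNA in the mitosis result was not tested. For the mitosis genes that library was not exceptional, with a sum between those of the other controls. Without it the median log2 fold change over the 36 was -0.78, the same count of 29 had all Rb1 samples below the remaining controls (13.7% of all genes), and 21 had an unadjusted p under 0.05 in edgeR (5.68% of all genes). Then 35 of the 36 were negative, against 48.0% of all genes, and Ccnb1 was the exception at 0.13.

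Promoters of mitosis genes are known for a short element, the cell cycle genes homology region (CHR), with the core TTTGAA. The MuvB complex sits on it and represses these genes in resting cells with p107 or p130, and activates them in G2 with B-MYB and FOXM1. It usually works with nearby CCAAT boxes, which bind NF-Y. RefSeq windows of 300 bases on GRCm38.p6, from 250 before the start site to 50 after it, were found for 32 of the 36 genes, with 34 windows in all. On either strand, TTTGAA occurred in 28 of these 34 windows, against 17.9% of all 32851 promoter windows of that length. CCAAT occurred in 27 of the 34, against 37.4% of all windows. Matches to the 2 words can share an end base, as they do in the Cdca8 window. Within 50 bases of the start site, TTTGAA was found in 26 of 34 windows, against 4.94% of all.

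The stretches below run from 200 bases before the start site to 30 after it, 5′ to 3′, on GRCm38.p6. Capitals mark TTTGAA and CCAAT, or their reverse complements TTCAAA and ATTGG. Mki67, Hmmr and Top2a are shown for having the smallest p among the members, Ccnb2 and Cdk1 as the kinase and a cyclin partner, Cdc20 for its small difference between groups, and Bub1 as a large difference without TTTGAA.
Mki67 (chr7:135716350-135716579, minus strand): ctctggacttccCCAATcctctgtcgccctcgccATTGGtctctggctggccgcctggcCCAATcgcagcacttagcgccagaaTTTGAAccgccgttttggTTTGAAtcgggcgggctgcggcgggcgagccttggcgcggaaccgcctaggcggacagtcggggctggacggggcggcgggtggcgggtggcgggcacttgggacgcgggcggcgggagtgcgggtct
Hmmr (chr11:40733408-40733637, minus strand): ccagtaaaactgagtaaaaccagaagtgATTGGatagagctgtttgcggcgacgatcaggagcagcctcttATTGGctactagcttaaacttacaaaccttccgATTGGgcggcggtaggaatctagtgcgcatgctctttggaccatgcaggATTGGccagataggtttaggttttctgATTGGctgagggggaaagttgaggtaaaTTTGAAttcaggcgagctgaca
Top2a (chr11:99024160-99024389, minus strand): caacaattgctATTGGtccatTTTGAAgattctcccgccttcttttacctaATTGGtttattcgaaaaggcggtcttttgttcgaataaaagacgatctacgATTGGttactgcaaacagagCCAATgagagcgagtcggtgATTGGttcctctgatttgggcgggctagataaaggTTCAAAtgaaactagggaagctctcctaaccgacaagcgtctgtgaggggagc
Ccnb2 (chr9:70421525-70421754, minus strand): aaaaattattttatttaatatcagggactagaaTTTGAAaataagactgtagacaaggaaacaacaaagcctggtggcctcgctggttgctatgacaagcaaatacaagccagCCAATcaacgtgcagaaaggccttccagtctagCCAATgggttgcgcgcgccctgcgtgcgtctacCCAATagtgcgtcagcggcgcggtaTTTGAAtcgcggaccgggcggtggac
Cdk1 (chr10:69352883-69353112, minus strand): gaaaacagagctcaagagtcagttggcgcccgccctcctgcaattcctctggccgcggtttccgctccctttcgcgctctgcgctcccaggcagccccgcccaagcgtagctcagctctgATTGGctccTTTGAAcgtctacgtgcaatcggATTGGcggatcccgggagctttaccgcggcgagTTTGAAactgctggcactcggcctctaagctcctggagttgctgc
Cdc20 (chr4:118437314-118437543, minus strand): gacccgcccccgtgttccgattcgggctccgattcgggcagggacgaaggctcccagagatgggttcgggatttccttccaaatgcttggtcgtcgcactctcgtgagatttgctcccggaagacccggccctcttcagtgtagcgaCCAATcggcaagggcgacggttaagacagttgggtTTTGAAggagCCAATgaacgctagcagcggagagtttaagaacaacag
Bub1 (chr2:127831830-127832059, minus strand): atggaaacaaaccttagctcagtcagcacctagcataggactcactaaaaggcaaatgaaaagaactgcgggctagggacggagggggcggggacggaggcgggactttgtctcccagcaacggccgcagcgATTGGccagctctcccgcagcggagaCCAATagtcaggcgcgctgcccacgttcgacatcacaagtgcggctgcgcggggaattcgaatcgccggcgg

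In these stretches Hmmr carries 5 CCAAT boxes on the reverse strand and a single TTTGAA just after the start site, while the 2 TTTGAA words of Mki67 lie further upstream. The Bub1 stretch has 2 CCAAT boxes and no TTTGAA. The 26 genes with TTTGAA in a window had a median log2 fold change of -0.79, and the 6 without it (Bub1, Birc5, Nuf2, Nusap1, Cenpe and Ccnb1) had -0.85. The split used this exact word only, so the 6 are not shown to lack a CHR. Another word that was counted, TTTAAA, occurred in the windows of Birc5, Cenpe and Ccnb1. It was in 9 of the 34 windows of mitosis genes, against 13.2% of all windows. Over all tested genes with a window the medians were -0.01 with TTTGAA and 0.01 without. A match of letters is a description of the sequence and says nothing about binding in these samples.

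**Figure D2:**
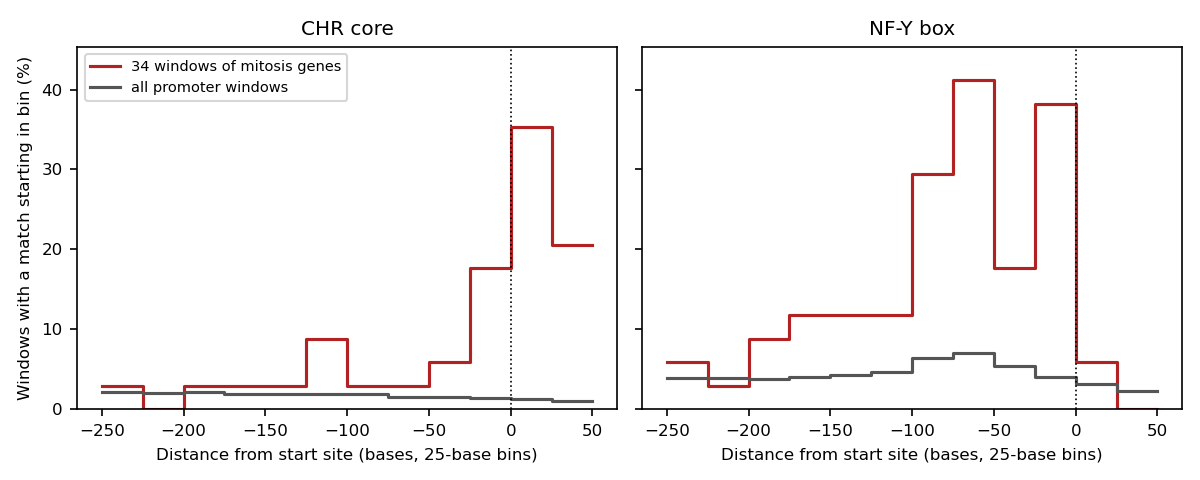
The share of promoter windows in which the CHR core (left) or the CCAAT box bound by NF-Y (right) starts in each bin of 25 bases, by distance from the start site, for the 34 windows of mitosis genes in red and all windows in grey. In the mitosis genes the CHR core is most frequent from 0 to 25 bases after the start site (35.3% of windows) and the CCAAT box from 75 to 50 bases before it (41.2%).

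The proliferation marker Mki67 and the topoisomerase Top2a, which both act on the structure of mitotic chromosomes, had Rb1 samples well below the controls. Mki67 encodes Ki-67, the coat of condensed chromosomes, and stood at 50.3, 52.3 and 42.1 CPM in control replicates 1, 2 and 3 and at 21.8, 19.6 and 26.5 CPM in Rb1 replicates 1, 2 and 3. The lowest control was 1.59 times the highest Rb1 sample. On the log2 scale the fold change was -1.09 (SE 0.15, edgeR adjusted p = 0.119, DESeq2 adjusted p = 1.03e-06). Mki67 was also the 1 member that DESeq2 called without control replicate 2 (adjusted p = 0.000887). Top2a, the enzyme that untangles sister DNA, stood at 19.0, 23.6 and 17.1 CPM in the controls and at 11.7, 9.63 and 10.9 CPM with Rb1. Its groups did not overlap either, and the log2 fold change was -0.89 (SE 0.16, edgeR adjusted p = 0.174, DESeq2 adjusted p = 0.00187, and 0.0516 without control replicate 2). Its exons contain a small nucleolar RNA annotated as Gm23451.

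The cyclins and their kinase were uneven. Ccna2, the A-type cyclin of S phase and G2, stood at 13.8, 12.2 and 8.57 CPM in controls and 5.97, 4.41 and 5.88 CPM with Rb1, so that all Rb1 samples were below all controls. Its log2 fold change was -1.08 (SE 0.23, edgeR adjusted p = 0.198, DESeq2 adjusted p = 0.00663, and 0.120 without control replicate 2), and its exons overlap Exosc9 on the other strand, a gene whose own log2 fold change was 0.10. Ccnb2, a B-type cyclin, stood at 4.80, 4.07 and 2.37 CPM in controls and 1.8, 1.76 and 2.22 CPM with Rb1. Control replicate 3 lay just above the highest Rb1 sample, and the log2 fold change was -0.95 (SE 0.31). Cdk1, which both cyclin types activate, stood at 6.14, 5.04 and 5.80 CPM in controls and 4.55, 3.05 and 4.64 CPM with Rb1, a smaller separation with a log2 fold change of -0.46 (SE 0.22). Ccnb1, the major B-type cyclin of dividing cells, was the member with the fewest reads and its groups overlapped. It had 14, 30 and 12 reads in the controls and 17, 8 and 18 with Rb1, which gave a log2 fold change of -0.27 (SE 0.41).

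Both kinases that act at the spindle poles had all Rb1 samples below all controls, against 9.74% of all genes. Aurka, the Aurora kinase of the centrosome, stood at 4.16, 4.83 and 3.48 CPM in controls and 2.08, 1.97 and 2.13 CPM with Rb1. The Rb1 samples lay within a narrow range, and the log2 fold change was -1.01 (SE 0.21, edgeR adjusted p = 0.198, DESeq2 adjusted p = 0.0449, and 0.418 without control replicate 2). Plk1, the Polo-like kinase of mitotic entry, had 3.32, 3.6 and 2.77 CPM in controls and 2.08, 1.76 and 1.62 CPM with Rb1 (-0.82, SE 0.23). Tpx2, which activates Aurora A on spindle microtubules, stood at 10.2, 11.4 and 8.77 CPM in controls and 5.73, 4.27 and 5.67 CPM with Rb1. Its lowest control was 1.53 times its highest Rb1 sample (-0.95, SE 0.19, edgeR adjusted p = 0.184, DESeq2 adjusted p = 0.006, and 0.142 without control replicate 2).

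The chromosomal passenger complex corrects faulty attachments of chromosomes to the spindle. Its 3 listed members all had Rb1 samples below controls, against 9.74% of all genes. Aurkb, its kinase, stood at 2.53, 3.09 and 2.62 CPM in controls and 1.42, 1.49 and 1.53 CPM with Rb1. Birc5, survivin, which brings the complex to the centromere, stood at 4.11, 4.45 and 2.22 CPM in controls and 1.04, 1.49 and 2.09 CPM with Rb1. Of the 3 it had the largest difference (-1.22, SE 0.38), but control replicate 3 and Rb1 replicate 3 were nearly level. Cdca8, borealin, had a log2 fold change of -0.79 (SE 0.21), against -0.89 (SE 0.22) for Aurkb.

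Spindle checkpoint kinases hold back anaphase until all chromosomes are attached. The 3 listed were separated as well, against 9.74% of all genes. Bub1 had the largest difference of all members together with Hmmr, at 2.72, 2.54 and 1.26 CPM in controls and 0.805, 0.949 and 0.724 CPM with Rb1. These are 55, 60 and 25 reads against 17, 14 and 17, and the log2 fold change of -1.40 had an SE of 0.37 (edgeR adjusted p = 0.258). Bub1b, the checkpoint protein BubR1, stood at 7.33, 7.84 and 6.0 CPM in controls and 3.6, 3.32 and 4.60 CPM with Rb1. It was called by DESeq2 (-0.87, SE 0.20, edgeR adjusted p = 0.216, DESeq2 adjusted p = 0.0431, and 0.393 without control replicate 2). Ttk, the kinase Mps1, had a log2 fold change of -0.84 (SE 0.30) on 99 reads in the controls and 52 with Rb1.

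The 3 genes of the anaphase-promoting pathway had a median log2 fold change of -0.59. All Rb1 samples lay below all controls for 2 of the 3, against 9.74% of all genes. Ube2c, the ubiquitin-conjugating enzyme of the complex, stood at 5.64, 5.29 and 4.23 CPM in controls and 2.70, 3.39 and 2.98 CPM with Rb1 (-0.74, SE 0.20). Its exons overlap the muscle troponin gene Tnnc2 on the other strand, which had 1136 CPM in control replicate 2 and between 2.0 and 15.8 CPM in the other libraries. Ube2c was not highest in that library. Cdc20, the activator of the complex, had overlapping groups at 2.57, 3.52 and 2.52 CPM in controls and 2.32, 2.10 and 2.68 CPM with Rb1 (-0.27, SE 0.24). Its exons overlap Elovl1 on the other strand, at 21.1 to 45.0 CPM. Cdca3, a trigger of mitotic entry through protein degradation, had a log2 fold change of -0.59 (SE 0.22).

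At the centromere and kinetochore, 4 of 6 genes had all Rb1 samples below all controls, against 9.74% of all genes. Cenpe, the kinetochore motor that moves chromosomes to the spindle equator, stood at 8.12, 8.39 and 6.90 CPM in controls and 4.93, 4.68 and 4.39 CPM with Rb1. The log2 fold change was -0.74 with an SE of 0.16 (edgeR adjusted p = 0.198, DESeq2 adjusted p = 0.0409, and 0.363 without control replicate 2). Cenpf (-0.86, SE 0.23) and the NDC80 complex subunits Nuf2 (-0.93, SE 0.23) and Ndc80 (-0.64, SE 0.29), which bind microtubules, were also separated. Spc25, from the same complex, overlapped slightly, at 12.6, 9.36 and 6.70 CPM in controls and 6.96, 3.93 and 5.67 CPM with Rb1. Cenpa, the histone variant that marks centromeres, was the most uneven within groups, at 7.63, 4.49 and 2.97 CPM in controls and 2.18, 3.32 and 4.17 CPM with Rb1. Control replicate 1 set much of its difference, since the log2 fold change was -0.64 (SE 0.40) with all samples and -0.21 without that library.

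Among the 6 kinesins, motors that slide or shorten spindle microtubules, 5 were separated, against 9.74% of all genes. Kif11, the motor that pushes the spindle poles apart, stood at 7.03, 8.26 and 5.19 CPM in controls and 2.89, 3.25 and 3.79 CPM with Rb1. It was the kinesin that DESeq2 called (-1.04, SE 0.23, edgeR adjusted p = 0.201, DESeq2 adjusted p = 0.0234, and 0.307 without control replicate 2). Kif4, a chromosome-bound motor, had a log2 fold change of -1.04 (SE 0.27), and Kif15, which assists Kif11, had -0.95 (SE 0.27). Kif23, which bundles microtubules at the site of division, stood at 6.49, 9.53 and 5.69 CPM in controls and 3.74, 4.0 and 5.67 CPM with Rb1, so control replicate 3 and Rb1 replicate 3 were level. Its log2 fold change of -0.69 was -0.44 without control replicate 2. Kif20a (-0.48, SE 0.22) was separated by a similarly thin margin and shares exon positions with Cdc23 on the other strand. Kif2c, which depolymerises microtubules, overlapped (-0.51, SE 0.32).

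Hmmr, a spindle protein that is also known as a hyaluronan receptor, stood at 5.10, 4.70 and 3.53 CPM in controls and 1.8, 1.29 and 1.92 CPM with Rb1. Its lowest control was 1.84 times its highest Rb1 sample, the widest gap among the 36. The log2 fold change was -1.40, with an SE of 0.26, which is 37.9% of the control level (edgeR adjusted p = 0.174, DESeq2 adjusted p = 0.00473, and 0.104 without control replicate 2). The other microtubule proteins were closer together, with Nusap1 at -0.76 (SE 0.22) and Prc1, which crosslinks the central spindle, at -0.68 (SE 0.22). Both overlap a gene on the other strand, Oip5 and Rccd1, which had log2 fold changes of -0.23 and -0.04.

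The 3 genes listed under cytokinesis had a median log2 fold change of -0.39. All Rb1 samples lay below all controls for 1 of the 3, against 9.74% of all genes. Racgap1, which with Kif23 forms the centralspindlin complex, stood at 13.2, 11.5 and 10.3 CPM in controls and 8.62, 6.98 and 7.07 CPM with Rb1, without overlap (-0.62, SE 0.17, edgeR adjusted p = 0.258). Ect2, the exchange factor that starts the contractile ring, overlapped at 5.30, 4.11 and 2.97 CPM in controls and 3.08, 3.80 and 2.64 CPM with Rb1 (-0.39, SE 0.28). Anln, anillin, which links that ring to the membrane, had overlapping groups, at 16.7, 17.9 and 21.6 CPM in controls and 18.9, 16.3 and 17.6 CPM with Rb1. Its log2 fold change was -0.09 with an SE of 0.14, and it was the 1 member whose highest control was replicate 3.

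**Figure D3:**
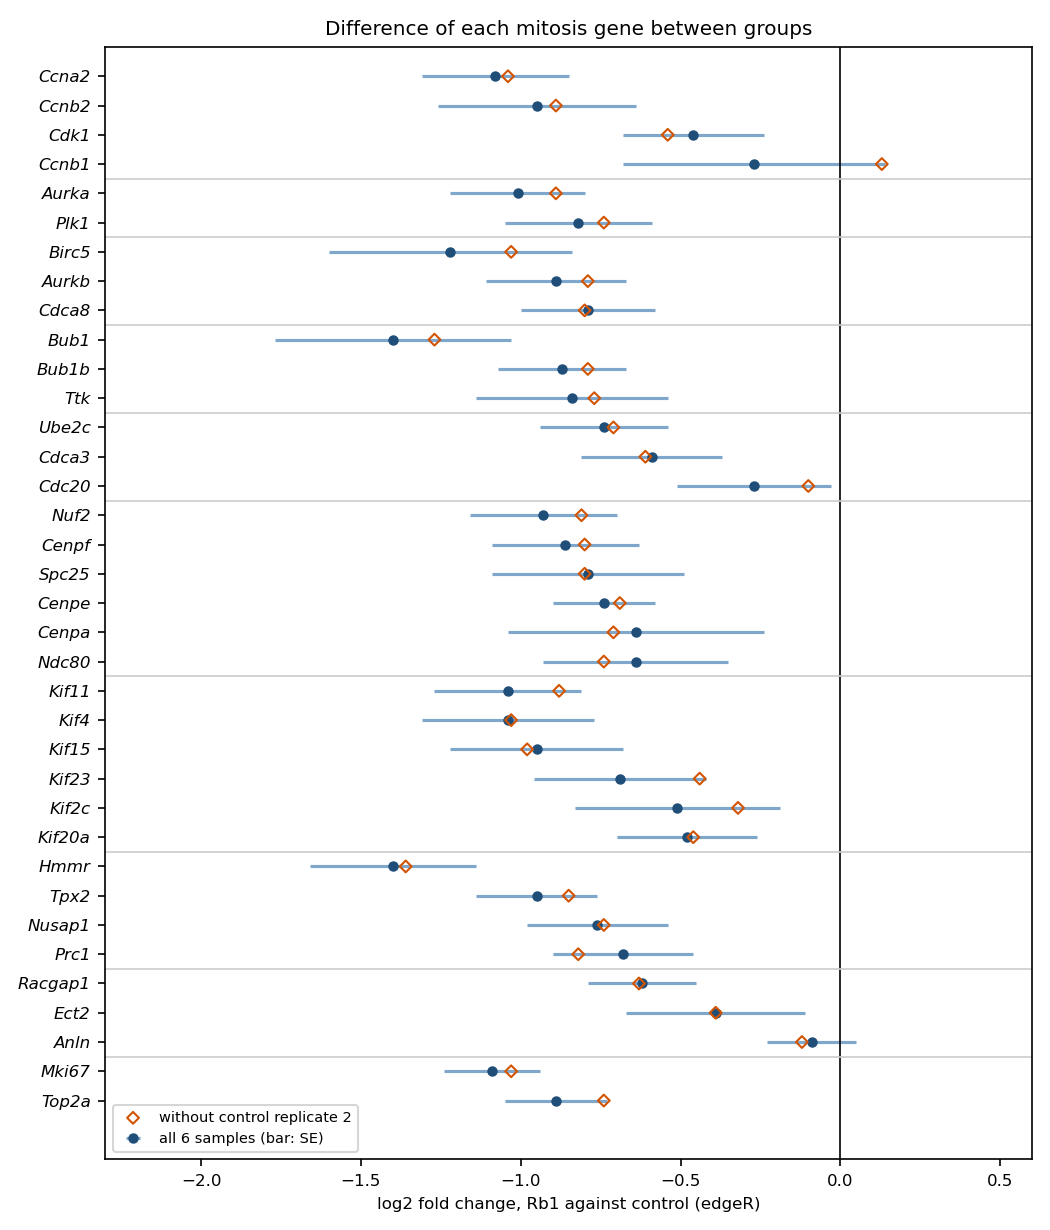
The log2 fold change of each mitosis gene, Rb1 against control, from edgeR with all 6 samples (blue, bar 1 SE) and without control replicate 2 (open orange diamonds). All 36 blue points lie below 0, from -1.40 to -0.09, and Ccnb1 at 0.13 is the 1 diamond above 0.

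A list of 60 further mitosis genes holds none of the 36, and the difference between the lists was not tested. The ratio of its summed CPM, control mean over Rb1 mean, was 1.21, against 1.72 for the 36. Genes with more reads weigh more in such a sum than in a median, and the median log2 fold change over the 36 was -0.81. Of the 57 tested genes among the 60, 52 had negative values, against 48.7% of all genes, with a median of -0.68. All Rb1 samples lay below all controls for 31, against 9.74% of all genes, and above for none, against 7.73%. At an unadjusted p under 0.05 edgeR placed 26 on the lower side, against 7.54%, and 0 on the higher, against 4.01%. It called 0 after adjustment. Without control replicate 2 DESeq2 called 0, against 0.936% of the genes it tested, and the median was -0.68. With all samples it called 2, against 2.01%. The 2 were Dlgap5, a spindle protein (-1.42, SE 0.29, edgeR adjusted p = 0.194), and Ckap2l, which also binds spindle microtubules (-1.05, SE 0.22, edgeR adjusted p = 0.198). Dlgap5 stood at 0.349, 0.428 and 0.266 FPKM in controls and 0.108, 0.116 and 0.150 FPKM with Rb1. Next by p were Cenpi, a centromere protein (-1.43), and the kinesin Kif18b (-1.41). The 5 genes on the higher side, Hjurp, Dsn1, Arhgap11a, Cenpk and Pttg1, ran from 0.01 to 0.29 and are named after their values were seen. TTTGAA occurred in 26 of the 56 promoter windows of this list.

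DNA replication and G1/S genes act before mitosis, in the copying of DNA. Of 40 tested, 35 had negative values, against 48.7% of all genes, with a median of -0.32. All Rb1 samples lay below all controls for 18, against 9.74% of all genes, and above for 1, against 7.73%. None passed edgeR. At an unadjusted p under 0.05 edgeR placed 15 on the lower side, against 7.54%, and 0 on the higher, against 4.01%. DESeq2 called 1, against 2.01% of the genes it tested. This was Rrm2, the ribonucleotide reductase subunit of S phase (-1.04, SE 0.26, edgeR adjusted p = 0.232). Rrm2 was not called without control replicate 2, and the list's median was then -0.33. Smallest by p in the list were Rrm2 and E2f8, a repressor of the E2F family (-1.06, SE 0.25). Next by p came Mcm10, a replication initiation factor (-1.07, SE 0.27), and Dtl, which targets the licensing factor Cdt1 for destruction (-0.91, SE 0.23). Lower values, named after they were seen, were those of Tk1 (-1.33, SE 0.35) and Clspn (-1.13, SE 0.32). The difference between this list and the mitosis genes was not tested. Their promoters differed in letters, with TTTGAA in 8 of 36 windows, and E2F-type sites (TTTCCCGC, TTTGGCGC, TTTCGCGC or TTTGCCGC) in 13 of 36 windows, against 2 of the 34 of mitosis genes and 2.26% of all.

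**Figure D4:**
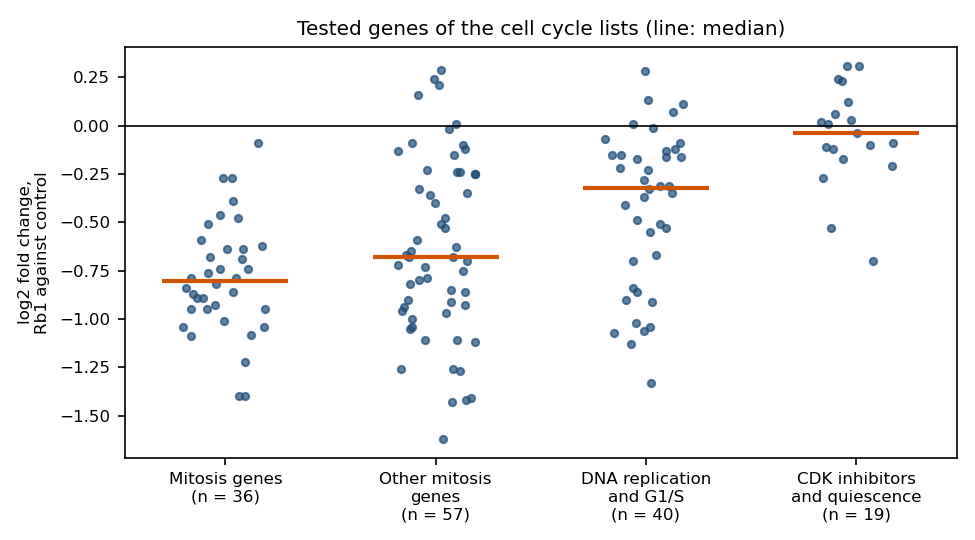
Log2 fold changes, Rb1 against control, of the tested genes in 4 cell cycle lists, with each dot a gene and the orange line the median. The medians are -0.81 for the 36 mitosis genes, -0.68 for other mitosis genes, -0.32 for replication genes and -0.04 for CDK inhibitors and quiescence genes.

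The list of CDK inhibitors and quiescence genes had values on both sides. It also holds subunits of MuvB, which represses mitosis genes in resting cells and activates them in G2. Of 19 tested genes, 10 were negative and 9 positive, with a median of -0.04, or -0.03 without control replicate 2. Cdkn2b, the inhibitor p15, was the 1 gene of this list that DESeq2 called, and it was lower (-0.70, SE 0.14, edgeR adjusted p = 0.184, DESeq2 adjusted p = 0.00994), but was not called without control replicate 2. Over all genes that DESeq2 tested, 2.01% were called lower. Cdkn2b stood at 10.2, 9.37 and 9.18 FPKM in controls and 6.67, 5.53 and 5.01 FPKM with Rb1. Lin54, the MuvB subunit that contacts the CHR, stood at 1.21, 0.937 and 1.19 FPKM in controls and 0.865, 0.701 and 0.690 FPKM with Rb1 (-0.53, SE 0.14, edgeR adjusted p = 0.269). Cdkn1c, the inhibitor p57, was on the higher side at 0.31 (SE 0.13), with 3.05, 3.34 and 3.44 FPKM in controls and 3.87, 3.80 and 4.20 FPKM with Rb1. The fourth by p was Btg1, an antiproliferative factor, at 0.24 (SE 0.14).

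Macrophages are among the cells of fat that can divide, and their markers were summed in the same libraries. The 16 genes of the macrophage list summed to 2839, 3229 and 2839 CPM in control replicates 1, 2 and 3 and to 1614, 2473 and 2255 CPM in Rb1 replicates 1, 2 and 3. Of the 16, 13 had negative values, against 48.7% of all genes, with a median of -0.61. All Rb1 samples lay below all controls for 9, against 9.74% of all genes. At an unadjusted p under 0.05 edgeR placed 10 on the lower side, against 7.54%, and it called 0 after adjustment. DESeq2 called 6 lower, against 2.01% of the genes it tested, and none of the 16 was at 0 in all samples. Without control replicate 2 the median was -0.51 and DESeq2 called 4, against 0.936%. The 4 with the smallest p were Itgax, the integrin CD11c (-1.55, edgeR adjusted p = 0.0744), Trem2, a lipid receptor (-1.42), Cd68, a lysosomal glycoprotein of phagocytes (-0.91), and Gpnmb, a membrane glycoprotein found on phagocytes (-0.88). Other members of the list were not on the lower side or only slightly so, with Mrc1, the mannose receptor, at -0.18 (SE 0.32), Clec10a, a lectin, at 0.01 (SE 0.23), Mertk, a receptor for dying cells, at 0.16 (SE 0.13) and Cd163, the haemoglobin scavenger receptor, at 0.23 (SE 0.38). These are named after their values were seen. Rb1 replicate 1 had the lowest macrophage sum and Rb1 replicate 2 the lowest mitosis sum. The part of macrophage number in the mitosis result was not tested.

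**Figure D5:**
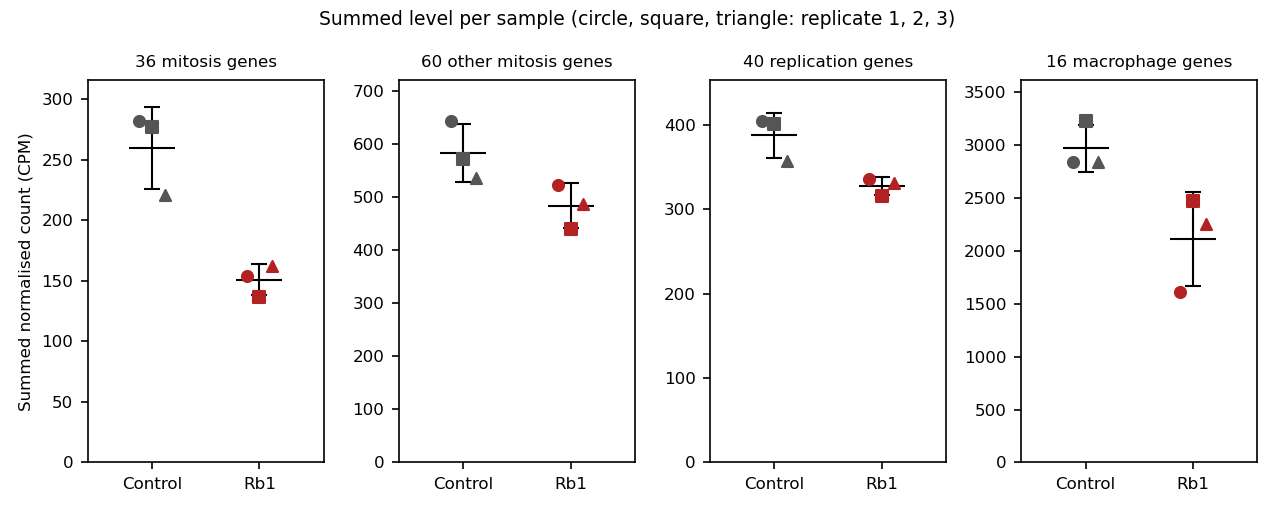
Summed TMM-scaled CPM per sample for the 36 mitosis genes, 60 other mitosis genes, 40 replication genes and 16 macrophage genes, with each point a sample and the bar the mean and SD of 3 samples. In each panel the 3 Rb1 samples lie below the 3 controls, at 137 to 162 CPM against 221 to 282 for the 36 mitosis genes.

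Markers of other cell types that the tissue could hold were summed in the same way. T and NK cell genes summed to 15.5 to 46.3 CPM in controls and 9.35 to 26.5 CPM with Rb1, with all 11 tested genes negative (median -0.70, and -0.43 without control replicate 2). B cell genes summed to 8.87 to 16.2 CPM and 6.91 to 13.5 CPM (median -0.15 over 7 tested), and neutrophil genes to 8.06 to 12.6 and 7.20 to 15.3 CPM (median -0.36 over 3 tested), with Ly6g at 0 in all samples. Adipocyte genes, the defining markers of the labelled tissue, were abundant in all samples, at 18490 to 21087 CPM in controls and 18629 to 23952 CPM with Rb1 (median 0.19 over 8). Progenitor genes summed to 1649 to 2605 and 1555 to 3046 CPM (median 0.07 over 8), and endothelial genes to 1653 to 1879 and 1741 to 2791 CPM (median 0.26 over 8). Erythroid genes were the other way round from the mitosis genes, at 238 to 389.6 CPM in controls and 412 to 673 CPM with Rb1 (median 0.70 over 6). Mesothelial genes summed to 1.53 to 4.89 and 3.79 to 5.69 CPM, with Upk1b at 0 in all samples, and germ cell genes to 15.9 to 51.9 and 16.6 to 72.5 CPM, with 2 genes of each list tested. Muscle genes had a median of -6.43 over 11 tested, or -2.28 without control replicate 2. DESeq2 called 2 lower with and without that library, against 2.01% and 0.936% of all genes it tested. The part of these cell types in the mitosis result was not tested.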

How the data were processed

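The 6 samples were grouped by their titles as 3 CTR and 3 Rb1. CASAVA 1.8, TopHat2 2.0.6 and the mm10 build appear in the submitters' processing notes. How reads were counted, with which annotation release and strand setting, is not stated there or in the labels. Whole-number counts for each Ensembl gene were deposited by the authors, and the same table has FPKM columns, per the file headers. FPKM equalled count over column total and an implied length for each gene, which was constant across samples within 0.00984% on 13169 genes. The implied length was over that of the longest GENCODE M21 transcript for 33 of the 36 members, by up to 4.21 times, so FPKM was compared only within a gene.

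Counts were tested with edgeR 4.0.16 (R 4.3.3) with TMM scaling, the default expression filter (minimum count 10, minimum total 15) and its quasi-likelihood F test between the groups, with Benjamini-Hochberg adjustment over 14093 genes and a threshold of 0.05. Standard errors were derived from the F statistic. DESeq2 1.42.0, RLE scaling, library totals, no expression filter, a replicate block and leaving out each sample were the alternatives, and DESeq2 without control replicate 2 and leaving out members with shared exons were added after seeing the data. The code was tested on simulated data. No 2 samples agreed within sampling noise (chi-square per degree of freedom of at least 30.38).

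Symbols came from a table of Ensembl identifiers, which named 21933 of 22040 genes, and coordinates and exon overlaps from GENCODE M21 on GRCm38, the assembly of mm10. Of the 36 members, 10 share exon positions with another annotated gene, 9 of them on the other strand, and are uncertain to that extent. These are Top2a, Ccna2, Plk1, Kif20a, Kif4, Nusap1, Prc1, Cdc20, Ube2c and Cdca8. Whether reads carried molecular identifiers is not stated in the labels. The number of reads bears on counting error only. The members and lists were chosen with earlier results of these data known. All members are accounted for, and of each other cell cycle list and the macrophage list the 4 genes with the smallest p are named. Promoter sequences are RefSeq's on GRCm38.p6.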

Additional observations from a re-analysis of the deposited data

How the results depend on the processing

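No member passed edgeR's test under RLE scaling, library totals, no expression filter or without any 1 sample (0 to 0 members), while DESeq2 called 9 and, without control replicate 2, called 1. Over all genes edgeR called 1, and 1 to 4 when 1 sample was left out (3, 4 and 2 without Rb1 replicates 1, 2 and 3), against 374 with DESeq2 and 173 with DESeq2 without control replicate 2. The cause of the gap between the tools was not tested. The count of members with every Rb1 sample below every control was 29 to 33 when 1 sample was left out. It was 20 of 26 without the members that share exon positions with another gene. With all samples, the share over all genes tested was 9.74%. Over all 36 members, the median log2 fold change ran from -0.92 to -0.72 when 1 sample was left out. The log2 ratio of their summed CPM, Rb1 against control, then ran from -0.89 to -0.72. Of 432 single-gene values under 12 alternatives, 419 kept their direction and side of the threshold, 10 passed the threshold with DESeq2, and 3 reversed, namely Ccnb1 at 0.13 without control replicate 2 in edgeR and in DESeq2, and Anln at 0.02 without control replicate 3. When 1 sample was left out, Ccnb1 ran from -0.47 to 0.13 and Anln from -0.16 to 0.02. Same-numbered samples had correlations of 0.136, -0.109 and 0.018, so the numbers were not taken as pairs, and with a replicate block edgeR called 1 gene and 0 members, with a median of -0.80. A count of 3 reads corresponds to 0.122 to 0.194 CPM, so the 14, 30 and 12 control reads of Ccnb1 leave little precision.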

Other observations

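Set against the macrophage sum, the 36 mitosis genes gave 9.95, 8.59 and 7.78 CPM for each 100 macrophage CPM in the controls and 9.53, 5.56 and 7.17 CPM with Rb1, in replicate order. On this ratio the groups overlapped, with Rb1 replicate 1, which had the lowest macrophage sum, between control replicates 1 and 2.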
